A study of Zea mays with 18 samples.

Results

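Maize (Zea mays) zygotes isolated 12 h after pollination were compared with unfertilized egg cells, which brackets the first change in RNA after fertilization. The comparison takes all 3 libraries of zygotes at 12 h and all 3 libraries of egg cells, 6 of the 18 libraries in the series. Every group came from untreated wild-type plants of the inbred line B73 kept in a growth chamber. A zygote library pooled 14 to 15 cells and an egg library 20 cells, which were freed by hand dissection and flash frozen. Polyadenylated RNA was turned into cDNA with a low-input kit and 15 cycles of amplification, then sequenced in read pairs on a HiSeq 1000. The time label (hap) was read as hours after pollination, so the hours since fertilization itself are fewer and not given in the sources used here. The remaining 12 libraries are sperm cells, zygotes at 24 h, and the apical and basal cells of the divided zygote. Of these, the 9 libraries other than sperm entered the fit to help estimate the spread between replicates. They also entered the filter that chose the genes tested and the scaling. The labels do not say whether replicates came from separate plants, so the p-values measure the spread between these libraries, which may be technical.

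The egg cell of a flowering plant is a small quiescent cell beside the synergids, central cell and antipodals of the embryo sac, and it carries a large store of messenger RNA. Fusion with a sperm cell starts a programme in which the zygote completes its cell wall, becomes polar, replicates its DNA and prepares an unequal division. New RNA can come from transcription of the zygote's own genome, maternal RNA can be degraded, and the sperm cell brings a small amount of RNA of its own. RNA-seq counts give each gene's share of the library, so fewer transcripts of a gene and more transcripts of all others cannot be told apart. Nor can fewer cells of a type in a pool and less RNA per cell.

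Egg replicate 1 stood apart from the other egg libraries. Over genes, it had a Spearman correlation of 0.866 with egg replicate 2 and 0.872 with egg replicate 3, whereas egg replicates 2 and 3 correlated at 0.93. Zygote libraries correlated with each other at 0.928 to 0.941. They correlated at 0.852 to 0.874 with egg replicate 1 and at 0.781 to 0.836 with the other eggs, so egg replicate 1 lay nearer to the zygotes. In egg replicate 1, 311 genes were at least 10 times above both other eggs and 370 were at least 10 times below them. Egg replicate 2 had 2 and 62 such genes, egg replicate 3 had 24 and 1, and no zygote library had more than 35 above or 6 below. For 241 of the 311 genes high in egg replicate 1, and for 321 of the 370 low ones, the zygote median lay closer to egg replicate 1 than to the other eggs on a log scale. What sets this library apart was not tested, and the main counts of calls are therefore given with all eggs and without it.

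Levels are CPM, counts scaled to a common library size, here adjusted by TMM factors unless stated. Some of the genes that distinguish egg replicate 1 have names with recognisable roles. gst18 (GRMZM2G019090), a glutathione S-transferase, had 45.7, 45.4 and 39.6 CPM in zygotes, against 62.8, 0 and 0 CPM in egg cells. mpk6 (GRMZM2G089484), a mitogen-activated protein kinase, had 20.7, 22.1 and 14.3 CPM in zygotes, against 13.7, 0.0842 and 0 CPM in egg cells. For both genes egg replicate 1 lay near the zygotes while the other eggs were at or near 0, and each was called higher only when that library was left out. The heat shock protein gene hsp22 (GRMZM2G007729) had 36.1, 35.1 and 56.8 CPM in zygotes, against 72.6, 5.13 and 3.31 CPM in egg cells. The beta-tubulin tub4 (GRMZM2G066191) had 44.7, 53.8 and 49.3 CPM in zygotes, against 71.2, 1.85 and 2.9 CPM in egg cells. For both, egg replicate 1 lay above every zygote library and the other eggs far below, and both were called higher only without that library. In the opposite direction, TRAF25 (GRMZM2G088086) had 104, 70.1 and 87.3 CPM in zygotes, against 25.8, 748 and 404 CPM in egg cells, with egg replicate 1 below all zygotes, and was called lower with and without that library. A call is an adjusted p under 0.05 in edgeR's quasi-likelihood test. These genes were picked after their values were seen, and a choice made on egg replicate 1 itself favours calls that depend on it.

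**Figure D1:**
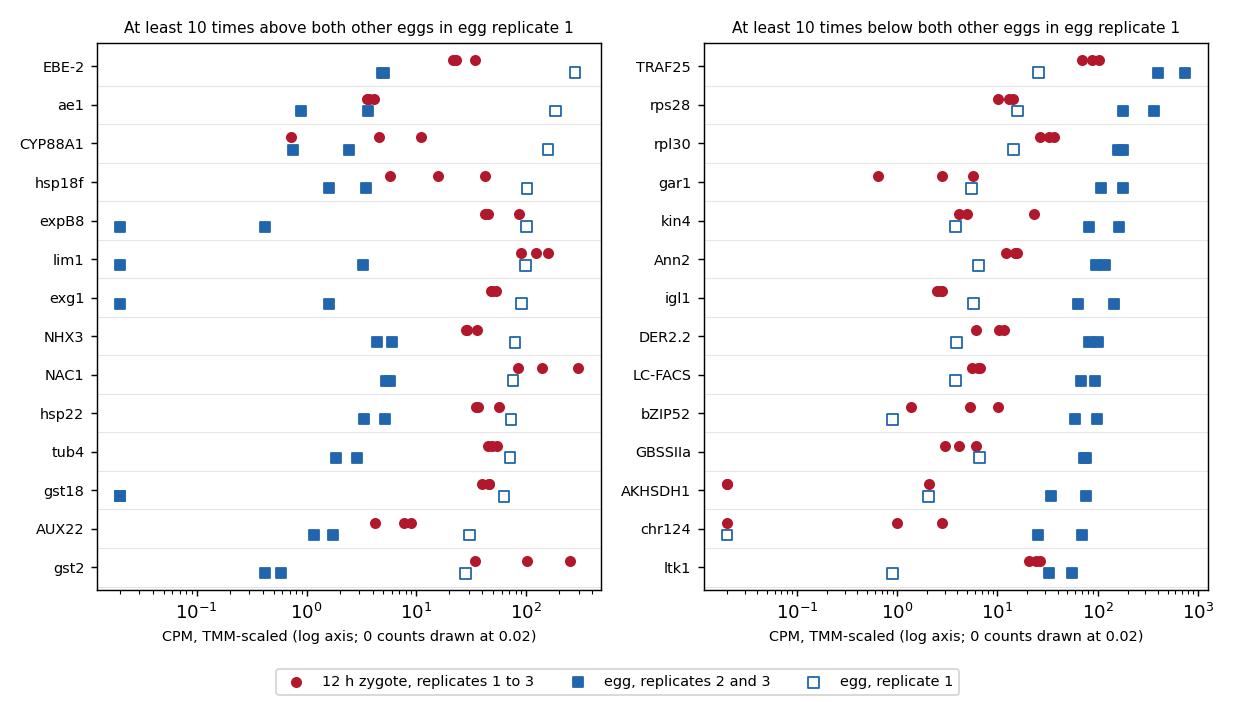
CPM on a log axis in each library for genes with the largest gap between egg replicate 1 and both other eggs, with the zygote libraries drawn above the egg libraries in each row. For gst18, the zygote libraries sit near egg replicate 1, which is at 62.8 CPM, while the other eggs are at 0.

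The libraries held 11128444 to 18219740 counts for zygotes and 11761976 to 18373932 for eggs. The zygotes expressed more genes: 20400 ± 376 genes reached 1 CPM by library size in zygotes and 16795 ± 667 in eggs (SD, n = 3 each). The groups did not overlap, and the difference of 3605 genes had an exact permutation p of 0.1 (two-sided), the smallest that 3 against 3 allows. The 100 most abundant genes took 8.70 ± 0.489% of the counts in zygotes and 13.3 ± 2.96% in eggs (SD, n = 3 each), again without overlap and again at the smallest exact p of 0.1. Zygote RNA was thus spread over more genes. Thinning every library to 11128444 counts left the difference in genes detected at 3679.

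In what follows, a value after ± on a log2 fold change or log2 change (12 h zygote over egg) is an approximate standard error. It was back-calculated per gene by dividing the size of the log2 change by √F, with F taken from the quasi-likelihood test. The fit itself did not estimate it. A value after ± on a mean CPM is the SD over 3 libraries. An adjusted p comes from edgeR's quasi-likelihood test with Benjamini-Hochberg adjustment. Of 23806 genes tested with all eggs, 4613 were called higher in 12 h zygotes (19.4%) and 4299 lower (18.1%), 37.4% in all. Without egg replicate 1, 6654 of 25065 genes were called higher (26.5%) and 5345 lower (21.3%), 47.9% in all. Most of the calls made with all eggs were made again without that library: 4208 of those higher and 4108 of those lower. No gene was called in opposite directions. A further 2331 genes tested in both were called higher, and 1021 lower, only when egg replicate 1 was left out. The other eggs matter as well, since without egg replicate 2 the number called lower was 2673. With only the 6 compared libraries in the fit, 3785 genes were called, 2546 higher and 1239 lower. In each of the 6 fits that left out 1 library, 3017 of the genes called higher (65.4%) and 1994 of those called lower (46.4%) kept their call.

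The genes called higher had larger fitted changes than those called lower. Of the genes called higher, 1270 had no count in any egg library, so the size of their change was not measured. Genes called higher also started from lower levels, given below. The part of either in the gap was not tested. The median log2 fold change was 4.58 over genes called higher and −1.69 over genes called lower. A fitted change of at least 8-fold was found for 3140 of the genes called higher and 849 of those called lower. The medians were 4.23 and −1.93 without egg replicate 1, and 4218 genes called higher and 1397 called lower reached 8-fold. Genes called higher had a median of 9.26 CPM in zygotes and 0.301 CPM in eggs. They took 14.0 to 20.4% of the counts in zygote libraries and 1.98 to 3.92% in egg libraries. Genes called lower had a median of 26.1 CPM in zygotes and 80.3 CPM in eggs, and took 28.5 to 34.0% of the counts in zygotes and 45.8 to 69.1% in eggs. Of the genes called lower, 2923 still averaged at least 10 CPM in zygotes and 142 had no count there. The median over all tested genes was 0.06 on the log2 scale with TMM factors and 0.58 with library size alone, under which 6142 genes were higher and 2174 lower. Without egg replicate 1 the median was 0.33 with TMM factors. In 3239 of the 4299 genes called lower, egg replicate 1 was the lowest of the eggs.

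**Figure D2:**
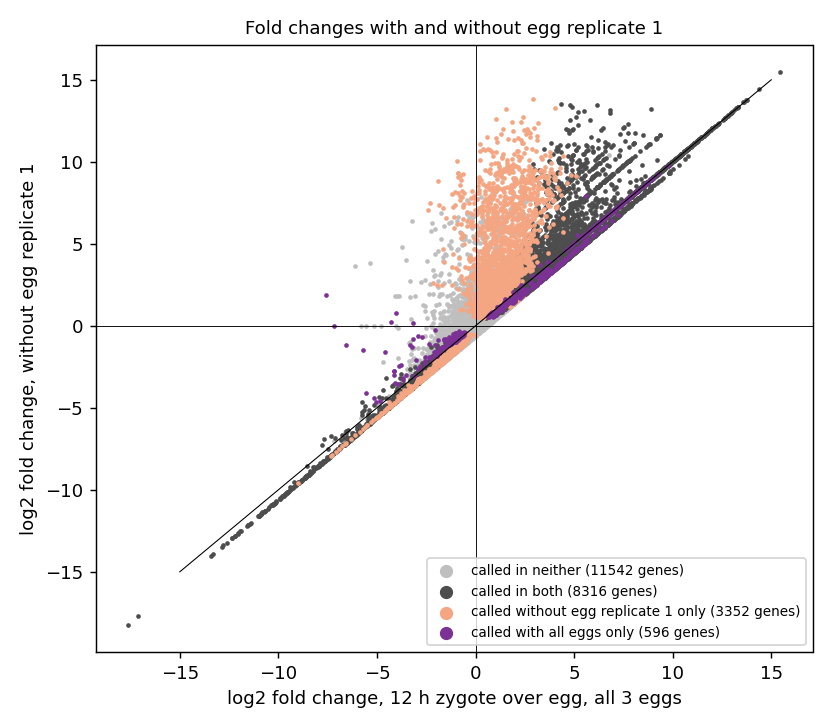
Log2 fold change of 12 h zygote over egg for every gene tested, without egg replicate 1 against with all eggs, coloured by call. Many of the 2331 genes called higher only without egg replicate 1 lie well above the diagonal, and genes lower in both fits lie near it.

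Keeping egg replicate 1 turned the sign of 4 genes that were called lower only with it. ae1 (GRMZM2G039942) had 3.58, 4.15 and 3.68 CPM in zygotes, against 185, 3.62 and 0.897 CPM in eggs. Its log2 fold change was −4.05 with all eggs and 0.76 without egg replicate 1. The other genes of this kind, GRMZM2G047699, GRMZM2G145466 and GRMZM2G101553, have no name in the reference, and egg replicate 1 was also far above their other eggs. No gene called higher changed its sign when that library was left out.

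Many of the genes that rose had no read at all in the eggs. Of the 4613 genes called higher, 1270 had 0 counts in all 3 egg libraries. Leaving out egg replicate 1, 2025 of 6654 had none in the other eggs. Of the 1270 genes, 57 (4.49%) reached 1 CPM in every sperm library, against 44.6% of all tested genes. In zygotes the 1270 were mostly low, with a median of 1.78 CPM against 10.7 CPM over all tested genes. Of them, 117 averaged 10 CPM or more. Their folds are given as minimum values, set against a limit of 3 counts in the egg libraries together, or 0.0777 CPM. Leaving out egg replicate 1, 2 or 3 lowers every such bound by a factor of 1.46, 1.44 or 1.60. Conversely, 142 of the 4299 genes called lower had no count in the zygotes, and 283 of 5345 without egg replicate 1.

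The 12 named genes with the largest fitted rise all had 0 counts in the eggs. Ranking by fitted change favours such genes, because the fitted value is largest where a group has no count. GRAS76, with 2 egg reads and a count ratio of 790.1, was not among the 12. RNRS3 (GRMZM2G323679), a small subunit of ribonucleotide reductase, the enzyme that makes deoxyribonucleotides, had 63.8, 79.1 and 115 CPM in zygotes, against 0 CPM in all 3 egg libraries, at least 1072-fold higher. Sperm libraries held 60.4, 39.2 and 75 CPM of it by library size, so this transcript was also present in the male gamete. The auxin biosynthesis gene Yucca3 (GRMZM2G107761), a flavin monooxygenase, had 36.7, 23.8 and 16.4 CPM in zygotes, against 0 CPM in all 3 egg libraries, at least 337-fold higher. It too was found in sperm, at 37.6, 31.7 and 32.1 CPM.

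HB85 (GRMZM2G031882), also named wox9B and of the WOX homeobox family that patterns plant embryos, had 17.8, 14.6 and 17.6 CPM in zygotes, against 0 CPM in all 3 egg libraries, at least 211-fold higher. The aquaporin pip2b (GRMZM2G092125), a water channel of the plasma membrane, had 24.5, 18.3 and 20.9 CPM in zygotes, against 0 CPM in all 3 egg libraries, at least 271-fold higher. Annexin Ann9 (GRMZM2G132461), a calcium-dependent phospholipid-binding protein, had 22.7, 27.5 and 36.5 CPM in zygotes, against 0 CPM in all 3 egg libraries, at least 363-fold higher. All 3 were at similar levels in every zygote library and absent from every egg library. The MADS-box factor m31 (GRMZM2G071620) rose at least 321-fold, the bZIP factor OBF1 (GRMZM2G479885) at least 276-fold, Myb56 (GRMZM2G041415) at least 223-fold and the calcineurin B-like interacting kinase cipk31 (GRMZM2G174896) at least 239-fold.

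For 3 of the 12 genes a single zygote library carried much of the level. Myb36 (GRMZM2G056407) had 15.6, 10.2 and 138 CPM in zygotes, against 0 CPM in all 3 egg libraries. Its bound was 578-fold with all zygotes and 162-fold without zygote replicate 3. The lipoxygenase lox1 (GRMZM2G156861) had 8.79, 57.9 and 4.33 CPM in zygotes, against 0 CPM in all 3 egg libraries, and the soluble acid invertase ivr2 (GRMZM2G089836), which splits sucrose, had 6.22, 45.4 and 6.86 CPM in zygotes, against 0 CPM in all 3 egg libraries. Without zygote replicate 2 the bound was 88.1-fold for lox1, against 357-fold with it, and 83.6-fold for ivr2, against 289-fold. Eggs had no read of any of these, so the direction did not depend on that library.

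The 12 named genes with the largest fall kept reads in most zygote libraries. pfk1 (GRMZM2G021846), named for phosphofructokinase, had 1.96, 2.1 and 3.18 CPM in zygotes, against 21.9, 88.9 and 66.7 CPM in egg cells. Its log2 fold change was −4.62 ± 0.53 (adjusted p = 6e-05), or −3.97 without egg replicate 2. CPPS2 (GRMZM2G044481), an ent-copalyl diphosphate synthase at the entry to gibberellin-type diterpenes, had 5.32, 7.01 and 4.62 CPM in zygotes, against 77.8, 64 and 166 CPM in egg cells, a log2 fold change of −4.18 ± 0.54 (adjusted p = 0.000157). The rule for these 12 genes required every zygote library to be below every egg library, so that separation is no added support. igl1 (GRMZM2G046191), an indole-3-glycerol phosphate lyase that releases free indole, had 2.52, 2.73 and 2.82 CPM in zygotes, against 5.81, 63.9 and 145 CPM in egg cells, with a log2 change of −4.73 ± 0.79 (adjusted p = 0.000687) and of −3.67 without egg replicate 3.

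The chaperonin CPN60I (GRMZM2G458208), which folds proteins in mitochondria, had 6.61, 9.98 and 4.05 CPM in zygotes, against 68.1, 200.1 and 312 CPM in egg cells, a log2 fold change of −4.81 ± 0.56 (adjusted p = 6.63e-05). The ribosomal protein gene rps28 (GRMZM2G030293) had 14.3, 13.2 and 10 CPM in zygotes, against 15.9, 364 and 181 CPM in egg cells. Egg replicate 1 was barely above the zygotes for rps28, and its log2 fold change of −3.90 ± 0.76 (adjusted p = 0.00164) became −2.75 without egg replicate 2. The protein phosphatase PP2C29 (GRMZM2G053722) had 2.35, 4.78 and 7.15 CPM in zygotes, against 24.2, 107 and 84.1 CPM in egg cells, and the glucose-6-phosphate isomerase gene gpi (GRMZM6G477257) had 6.5, 13.4 and 1.16 CPM in zygotes, against 28.1, 44.5 and 215 CPM in egg cells. The log2 change was −3.92 ± 0.68 for PP2C29 and −3.76 ± 0.80 for gpi. The value was −3.28 without egg replicate 2 for PP2C29. For gpi it became −2.34 when egg replicate 3 was left out and −4.63 without zygote replicate 2. CPN60I, PP2C29 and gpi each share a reference entry with another gene ID, so reads of near-identical copies may be split and their levels are uncertain. Of the remaining 5, isr, AKHSDH1 and ADPRT-2 kept their calls without any 1 library, whereas SIP-1 lost its call without egg replicate 2 or zygote replicate 2, and Bk2L6 without egg replicate 3, zygote replicate 1 or zygote replicate 3.

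**Figure D3:**
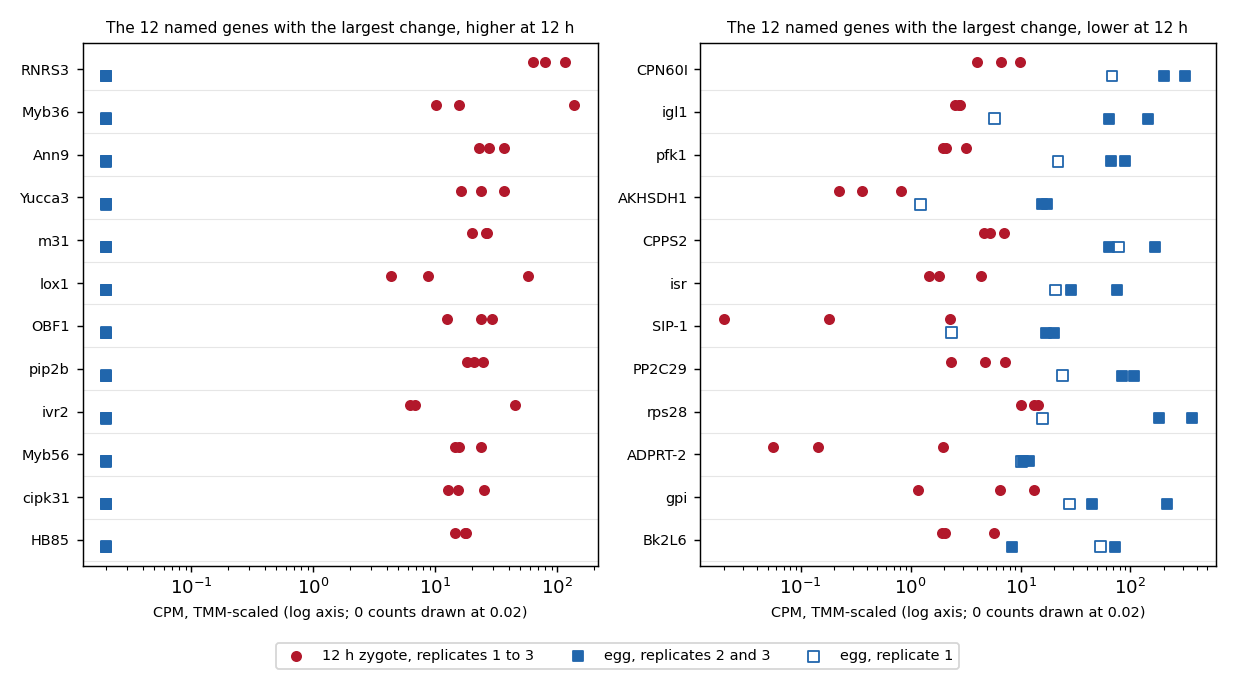
CPM per library on a log axis for the 12 named genes with the largest rise and the 12 with the largest fall, with zygote libraries shown before egg libraries and libraries with no count drawn at the bottom of the axis. None of the 12 rising genes has a count in an egg library, which a ranking by fitted change favours.

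Genes were then grouped by role, and for each group the number of tested members called in each direction is set beside the background of 19.4% higher and 18.1% lower and the median log2 fold change of 0.06 over all genes. Of 51 groups with at least 5 tested members, 32 had more members called higher than lower, 17 had more lower and 2 had as many of each. The first kind holds most families of transcription factors, hormone genes and cell wall genes. The second holds genes of translation, energy metabolism, chromatin, the cytoskeleton, protein folding and turnover, and RNA processing. Leaving out egg replicate 1, 16 of the 17 still had more lower, and with library size scaling 11 did, while all 32 of the first kind kept more higher under both. Library size scaling cut the number called lower by at least 1.5 times in 33 of the 41 groups that had any. No test was made over a group.

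**Figure D4:**
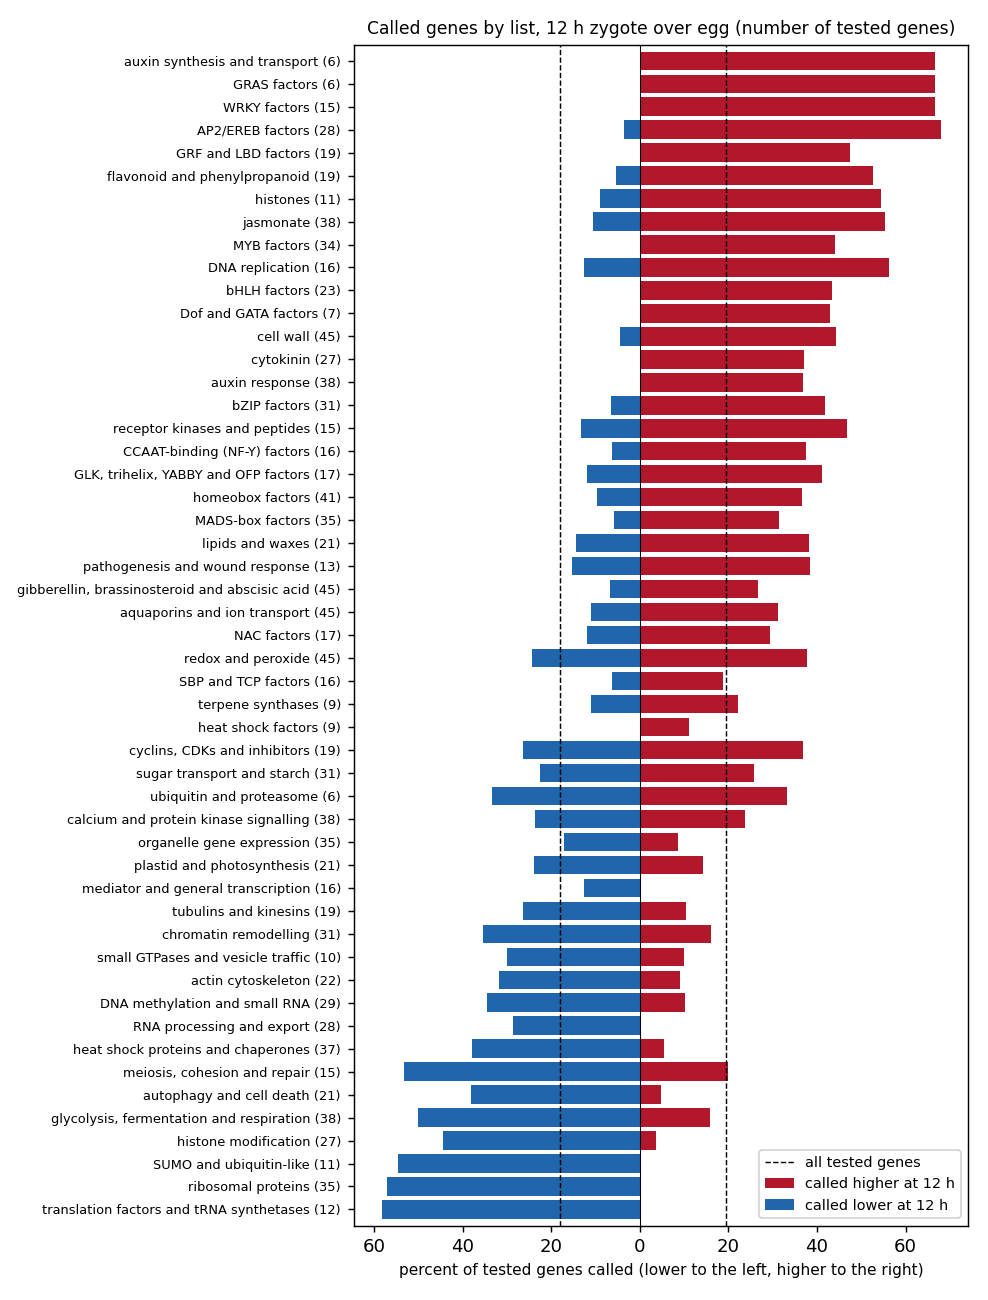
Share of tested members called higher and lower in 12 h zygotes against eggs for each gene group, with dashed lines at the background of 19.4% and 18.1%. Auxin synthesis, GRAS, WRKY and AP2/EREB genes extend furthest to the higher side, ribosomal and translation genes to the lower side.

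DNA replication genes rose more often than they fell. Of 16 tested, 9 were called higher and 2 lower, with a median log2 fold change of 1.95, and without egg replicate 1 the counts were 10 and 2. tk1 (GRMZM2G048821), a thymidine kinase that salvages thymidine for DNA, had 46.2, 45.8 and 35.4 CPM in zygotes, against 3.76, 3.45 and 4.9 CPM in egg cells, a log2 fold change of 3.39 ± 0.35 (adjusted p = 2.25e-05). Zygotes and eggs were each uniform for tk1 and did not overlap. Among those called lower, the origin recognition subunit orc3 (GRMZM2G381822), had a log2 fold change of −1.54 ± 0.47, or −0.45 without egg replicate 3, and lost its call without egg replicate 3, zygote replicate 1 or zygote replicate 2.

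Core histone and linker histone genes also rose. Of 11 tested, 6 were called higher and 1 lower, with a median of 2.26, and 7 and 1 without egg replicate 1. H4C13 (GRMZM2G149178), a histone H4 gene, had 227, 171 and 427 CPM in zygotes, against 6.13, 0.168 and 8.48 CPM in egg cells, a log2 fold change of 5.79 ± 0.79 (adjusted p = 0.000209), or 6.46 without egg replicate 3. Histone H4 copies are near-identical and share the reference entry, so which copy was read is uncertain. hon110 (GRMZM2G164020), of the linker histone family, had 77.5, 35.6 and 101 CPM in zygotes, against 8.91, 2.61 and 3.1 CPM in egg cells, with a log2 fold change of 3.87 ± 0.59 and of 4.63 without egg replicate 1. Every zygote library exceeded every egg library for both. The 1 gene called lower, his2a1 (GRMZM2G305046), had 0.112, 0.273 and 0.289 CPM in zygotes, against 0.0818, 2.19 and 15.2 CPM in egg cells, and lost its call without egg replicate 3 or any 1 zygote library.

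Cell cycle regulators changed in both directions. Of 19 cyclins, cyclin-dependent kinases and inhibitors, 7 rose and 5 fell (median 0.59), and 8 and 4 without egg replicate 1. The number that fell was 2 without egg replicate 2, 3 without zygote replicate 1 and 2 without zygote replicate 3. cyc1 (GRMZM2G034647), an A-type cyclin by its synonym, had 5.26, 11.4 and 19 CPM in zygotes, against 0, 0 and 0.759 CPM in egg cells. Its log2 fold change was 5.40 ± 0.79, and egg replicate 3 was the only egg library with a read. Rbl1 (GRMZM2G033828), a retinoblastoma-related gene also named rbr3, had 180.4, 188 and 181 CPM in zygotes, against 31.6, 28.4 and 73.1 CPM in egg cells, a log2 fold change of 2.04 ± 0.36 (adjusted p = 0.000897), or 2.63 without egg replicate 3. cyclin8 (GRMZM2G138886) had 12.9, 20.4 and 8.81 CPM in zygotes, against 66.9, 45.4 and 53.9 CPM in egg cells, a log2 change of −1.98 ± 0.36 that no left-out library ended. Zygotes were above all eggs for cyc1 and Rbl1 and below all eggs for cyclin8.

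More cytoskeletal genes were called lower than higher, by a margin that library size scaling narrowed, and an actin-depolymerizing factor was a large exception. Of 19 tubulins and kinesins, 2 rose and 5 fell, 3 and 7 without egg replicate 1, and the number that rose was 4 without egg replicate 3 and 1 without zygote replicate 2. Of 22 actin cytoskeleton genes, 2 rose and 7 fell, 3 and 9 without egg replicate 1, with 4 lower without egg replicate 2 or zygote replicate 3. With library size scaling, 4 tubulins and kinesins rose and 5 fell, and 3 actin cytoskeleton genes rose and 4 fell. tua4 (GRMZM2G152466), an alpha-tubulin, had 829, 947 and 904 CPM in zygotes, against 1265, 4347 and 3043 CPM in egg cells, a log2 fold change of −1.69 ± 0.33, or −1.05 without egg replicate 2. The profilin PRO4 (GRMZM2G108780), an actin monomer-binding protein, averaged 318 ± 20.9 CPM in zygotes and 791 ± 217 CPM in egg cells (SD, n = 3 each), a log2 change of −1.32 ± 0.21. Against this, ABP1 (GRMZM2G117603), the actin-depolymerizing factor also named adf1, had 246, 220.4 and 304 CPM in zygotes, against 0.9, 0.589 and 0.621 CPM in egg cells, a log2 fold change of 8.50 ± 0.55 (adjusted p = 3.72e-07). All eggs were below 1 CPM for ABP1, and the zygotes lay close to each other. The myosin gene M2 (GRMZM2G332687) had 0.112, 0 and 0.0722 CPM in zygotes, against 2.04, 10.2 and 10.7 CPM in egg cells. The zygotes held 3 reads of it together, a ratio of 0.00717 with an exact 95% counting interval of 0.00147 to 0.0212. M2 shares its reference entry with another gene ID and its counts are uncertain.

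Genes that modify histones fell more often than they rose. Of 27 tested, 1 rose and 12 fell (median −0.89), and 2 and 15 without egg replicate 1. Without egg replicate 2 or 3, the number that rose was also 2. The histone deacetylase Hda1 (GRMZM2G457889) had 63.8, 119 and 58.9 CPM in zygotes, against 226, 297 and 314 CPM in egg cells, a log2 fold change of −1.79 ± 0.26 (adjusted p = 0.000293). HD2b (GRMZM2G100146), of the plant-specific HD2 deacetylase family, had 255, 279 and 176 CPM in zygotes, against 561, 1866 and 1061 CPM in egg cells, a log2 change of −2.30 ± 0.36, or −1.56 without egg replicate 2. Both were below all eggs in all zygotes. mez1 (GRMZM2G157820), a homolog of the Drosophila Polycomb-group methyltransferase E(z), had 65.5, 59.1 and 51.6 CPM in zygotes, against 19.1, 0.421 and 4.21 CPM in egg cells, a log2 fold change of 2.90 ± 0.72 (adjusted p = 0.00648), or 4.63 without egg replicate 1, the egg library with the most reads of it.

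Chromatin remodelling, DNA methylation and meiosis genes were called lower more often than higher, which for the first of these and for DNA methylation depended on the scaling. Of 31 remodelling and assembly genes, 5 rose and 11 fell (6 and 13 without egg replicate 1), against 9 and 5 with library size scaling. Without egg replicate 2, zygote replicate 1 or zygote replicate 3, 7 fell. nfd106 (GRMZM2G125648), of the high mobility group type, had 102, 67 and 76.2 CPM in zygotes, against 0.491, 1.94 and 3.52 CPM in egg cells, a log2 fold change of 5.34 ± 0.50 (adjusted p = 8.89e-06), or 6.09 without egg replicate 3. nfd110 (GRMZM2G032252), also named ssrp1 after a subunit of the histone chaperone FACT, averaged 60.7 ± 11.7 CPM in zygotes and 206 ± 62 CPM in egg cells, a log2 change of −1.76 ± 0.28. Of 29 DNA methylation and small RNA genes, 3 rose and 10 fell (2 and 12 without egg replicate 1), against 9 and 6 with library size scaling, and 6 fell without egg replicate 2. The DNA methyltransferase met5 (GRMZM2G005310) had 74.2, 159.8 and 85.6 CPM in zygotes, against 1.23, 24 and 19.7 CPM in egg cells, a log2 change of 2.83 ± 0.65 and of 3.56 without egg replicate 2. lbl1 (GRMZM2G020187), the SGS3 homolog of the trans-acting small RNA pathway, averaged 160.1 ± 28.3 CPM in zygotes and 452 ± 175 CPM in egg cells, a log2 change of −1.50 ± 0.29. Of 15 meiosis, cohesion and repair genes, 3 rose and 8 fell (3 and 10 without egg replicate 1), and 1 rose without egg replicate 2 or 3. Dmc1 (GRMZM2G109618), the meiotic recombinase, had 55.7, 76.3 and 50.8 CPM in zygotes, against 256, 189.6 and 516 CPM in egg cells, a log2 change of −2.39 ± 0.38 (adjusted p = 0.00053). The cohesin subunit SMC3 (GRMZM2G456570) averaged 41 ± 10.1 CPM in zygotes and 123 ± 40 CPM in egg cells, a log2 change of −1.59 ± 0.27.

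In most transcription factor families, many members rose and few fell. Of 15 WRKY factors 10 were called higher and 0 lower (median 3.63), of 6 GRAS factors 4 and 0 (median 6.27), and of 28 AP2/EREB factors 19 and 1 (median 3.09). Without egg replicate 1 these counts were 10 and 0, 4 and 0, and 17 and 1. AP2/EREB genes called higher numbered 11 without egg replicate 3 and 12 without zygote replicate 1, and none was lower without egg replicate 2. WRKY116 (GRMZM2G130854), of a family tied to stress and defence responses, had 51.1, 78.8 and 55 CPM in zygotes, against 12.3, 2.02 and 8.9 CPM in egg cells, a log2 fold change of 2.99 ± 0.48 (adjusted p = 0.000563). EREB139 (GRMZM2G103085) had 59.4, 14.9 and 73.8 CPM in zygotes, against 0, 0 and 0.207 CPM in egg cells from 3 egg reads in all, a ratio of 578 with an exact 95% counting interval of 198 to 2804. DBP4 (GRMZM2G380377), also named EREB56, had 17.1, 12.3 and 13.2 CPM in zygotes, against 0, 0 and 0.207 CPM in egg cells, again from 3 egg reads, a ratio of 182 with an exact 95% counting interval of 62 to 884. All egg reads of both came from egg replicate 3. The DELLA-type GRAS gene d9 (GRMZM2G024973), whose protein restrains gibberellin responses, had 4.14, 1.69 and 2.1 CPM in zygotes, against 0 CPM in all 3 egg libraries, at least 33.6-fold higher. GRAS76 (GRMZM2G028438) had 39.6, 33.2 and 54.8 CPM in zygotes, against 0, 0 and 0.138 CPM in egg cells from 2 egg reads, a ratio of 790.1 with an exact 95% counting interval of 218 to 6528.

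Factors with known roles in embryos were among those that rose. CADR1 (GRMZM2G011789), whose synonym is lec1, after the NF-Y subunit LEAFY COTYLEDON that promotes embryo identity in Arabidopsis, had 12.3, 6.47 and 13 CPM in zygotes, against 0 CPM in all 3 egg libraries, at least 129.8-fold higher. It stood at 5.54 ± 2.3 CPM in zygotes at 24 h (SD, n = 3). Of 16 NF-Y factors 6 rose and 1 fell, and the gene called lower, NF-YA13, lost its call without egg replicate 2 or any 1 zygote library. Without egg replicate 1, 9 rose and 3 fell. wox9A (GRMZM2G133972), another WOX gene, had 12.1, 10.1 and 14.2 CPM in zygotes, against 0 CPM in all 3 egg libraries, at least 152-fold higher, beside HB85 above. Both WOX genes were read in every zygote library and in no egg library. Of 41 homeobox factors, 15 rose and 4 fell (median 1.61), and 20 and 4 without egg replicate 1. The fallen number was 1 without egg replicate 3 or zygote replicate 1 and 2 without either other zygote library. homeobox1 (GRMZM2G136369) averaged 17.8 ± 6.05 CPM in zygotes and 41.6 ± 2.21 CPM in egg cells, a log2 change of −1.22 ± 0.29. AS2 (GRMZM2G118250), also named IG1 after indeterminate gametophyte, an LBD factor that limits growth of the embryo sac, had 7, 7.42 and 10.6 CPM in zygotes, against 0.164, 0.0842 and 0 CPM in egg cells from 3 egg reads, a ratio of 104 with an exact 95% counting interval of 35.4 to 507. Of 19 GRF and LBD factors 9 rose and 0 fell, and 13 and 0 without egg replicate 1.

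The remaining families of transcription factors had smaller shares of members called higher than the WRKY, GRAS and AP2/EREB factors. MYB factors gave 15 higher and 0 lower of 34 (9 higher without egg replicate 2 or 3), bHLH factors 10 and 0 of 23 (6 higher without egg replicate 2), and bZIP factors 13 and 2 of 31. Without egg replicate 1 these became 18 and 1 of 36, 10 and 0 of 25, and 17 and 4 of 34. MADS-box factors gave 11 higher and 2 lower of 35 and NAC factors 5 and 2 of 17 (3 higher without egg replicate 2 or 3), and 16 and 4 of 37 and 7 and 2 of 19 without egg replicate 1. With 1 library left out, the number lower ranged from 0 to 4 for bZIP factors and from 1 to 4 for MADS-box factors, highest in both without egg replicate 1. Dof and GATA factors gave 3 and 0 of 7 (2 and 0 without egg replicate 1), SBP and TCP factors 3 and 1 of 16 (5 and 2 without egg replicate 1), and GLK, trihelix, YABBY and OFP factors 7 and 2 of 17 (9 and 2 without egg replicate 1). Heat shock factors gave 1 and 0 of 9, and 4 and 0 of 11 without egg replicate 1. With all eggs, the share higher was below the background of 19.4% for SBP and TCP factors (18.8%) and for heat shock factors (11.1%). Of 3 B3 factors, 0 were higher and 1 was lower, with and without egg replicate 1. bZIP46 (GRMZM2G037910) had 11.9, 9.43 and 18.2 CPM in zygotes, against 0 CPM in all 3 egg libraries, at least 161-fold higher. AGAMOUS (GRMZM2G359952), a MADS-box gene named for the Arabidopsis floral regulator, had 8.96, 17.6 and 17.8 CPM in zygotes, against 0 CPM in all 3 egg libraries, at least 190-fold higher. bHLH168 (GRMZM2G030744) had 56.6, 71.5 and 91.5 CPM in zygotes, against 22.7, 12.7 and 9.86 CPM in egg cells, a log2 fold change of 2.28 ± 0.35 (adjusted p = 0.000378). All 3 were higher in every zygote library than in any egg. m5 (GRMZM2G171365), also named SOC1, fell, with 43.5 ± 19.1 CPM in zygotes and 143 ± 31.7 CPM in egg cells, a log2 change of −1.72 ± 0.33.

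With all eggs, auxin and cytokinin genes were called higher and none lower. Of 6 auxin synthesis and transport genes 4 rose and 0 fell, and of 38 auxin response genes 14 rose and 0 fell (9 higher without zygote replicate 3). Without egg replicate 1 these were 5 and 0 of 7, and 14 and 1 of 39. PIN10a (GRMZM2G126260), a PIN-type auxin exporter, had 2.63, 1.73 and 1.23 CPM in zygotes, against 0 CPM in all 3 egg libraries, at least 24.5-fold higher. The auxin response factor ARF23 (GRMZM2G441325) had 6.66, 4.51 and 4.91 CPM in zygotes, against 0 CPM in all 3 egg libraries, at least 68.6-fold higher. rel2 (GRMZM2G042992), a TOPLESS-like corepressor that auxin repressors recruit, had 54.9, 62.5 and 55.4 CPM in zygotes, against 7.85, 6.98 and 10.3 CPM in egg cells, a log2 fold change of 2.78 ± 0.40 (adjusted p = 0.000265). Eggs held a low level of rel2 in all libraries, unlike PIN10a and ARF23, which were at 0. Of 27 cytokinin genes 10 rose and 0 fell, and 13 and 0 without egg replicate 1. HK1 (GRMZM2G151223), a histidine kinase receptor, had 24.6, 18.3 and 13.9 CPM in zygotes, against 0, 0 and 0.483 CPM in egg cells, a log2 fold change of 6.71 ± 0.99, and egg replicate 3 held all its egg reads. abph1 (GRMZM2G035688), a response regulator that dampens cytokinin signalling, had 15.7, 15.3 and 4.99 CPM in zygotes, against 0, 0 and 0.138 CPM in egg cells from 2 egg reads, a ratio of 247 with an exact 95% counting interval of 68.1 to 2042.

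Jasmonate genes rose more often than they fell. Of 38 tested, 21 rose and 4 fell (median log2 fold change 4.02), 25 and 4 without egg replicate 1, with 2 lower without egg replicate 2 and 1 without zygote replicate 3. The members that rose include oxophytodienoate reductases, a family of which some members act in jasmonate synthesis. opr3 (GRMZM2G156712) had 45.4, 30 and 147 CPM in zygotes, against 1.31, 0 and 0.069 CPM in egg cells, a log2 fold change of 7.34 ± 1.05, with 6.36 without zygote replicate 3, and 1 egg read was left without egg replicate 1. opr1 (GRMZM2G106303) had 199.5, 88.6 and 777 CPM in zygotes, against 15.6, 0 and 4.07 CPM in egg cells, a log2 fold change of 5.76 ± 1.29, with 7.39 without egg replicate 1 and 4.46 without zygote replicate 3. In both, zygote replicate 3 was far above the other zygotes, and all zygotes were above all eggs. opr6 (GRMZM2G068947) had 17, 3.19 and 9.9 CPM in zygotes, against 0 CPM in all 3 egg libraries, at least 122-fold higher, or at least 74.4-fold without zygote replicate 1. TIFY30 (GRMZM2G143402), of the family that holds the jasmonate repressors, fell, with 106, 147 and 130.3 CPM in zygotes, against 261, 820.4 and 458 CPM in egg cells (adjusted p = 0.000576), a log2 change of −2.32 without egg replicate 1 and of −1.28 without egg replicate 2. Of 45 gibberellin, brassinosteroid and abscisic acid genes, 12 rose and 3 fell (16 and 5 of 47 without egg replicate 1, with the number lower at 1 without egg replicate 3 and 6 without zygote replicate 2). Of 4 ethylene genes tested, 0 were called by edgeR or DESeq2 and 1 was higher at an unadjusted p under 0.05, and of 5 tested without egg replicate 1, 0 were called by edgeR.

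Receptor genes rose more often than they fell, and calcium and kinase genes split. Of 15 receptor kinases and peptides, 7 rose and 2 fell (9 and 2 without egg replicate 1), 0 of them lower without egg replicate 2 and 1 without zygote replicate 1 or 3. ERECTA (GRMZM5G809695), a receptor kinase of the family that acts in Arabidopsis zygote elongation, had 16.6, 9.29 and 10.8 CPM in zygotes, against 0.0818, 0.0842 and 0.207 CPM in egg cells, a log2 fold change of 6.51 ± 0.92 (adjusted p = 0.000241), or 7.11 without egg replicate 3. PepR1 (GRMZM2G011806), a receptor of danger peptides, had 82.9, 79.5 and 64.5 CPM in zygotes, against 0.0818, 1.68 and 4.07 CPM in egg cells, a log2 fold change of 5.25 ± 0.78, or 6.44 without egg replicate 3. Sperm libraries held 2905, 2338 and 3562 CPM of PepR1 by library size, so the male gamete carried it at a far higher level. Of 38 calcium and kinase genes, 9 rose and 9 fell (10 and 10 without egg replicate 1), and 3 fell without egg replicate 2 and 4 without zygote replicate 3. With library size scaling, 13 rose and 3 fell. The calcium-dependent kinase CPK21 (GRMZM2G463464) had 67.1, 72.4 and 104 CPM in zygotes, against 7.93, 11.5 and 13.7 CPM in egg cells, a log2 change of 2.87 ± 0.39 (adjusted p = 0.000195). The calmodulin CaM1 (GRMZM2G152891) averaged 161 ± 40.2 CPM in zygotes and 407 ± 154 CPM in egg cells, a log2 change of −1.34 ± 0.27, and the annexin Ann6 (GRMZM2G061950) averaged 634 ± 43.4 CPM in zygotes and 1615 ± 310.1 CPM in egg cells, a log2 change of −1.35 ± 0.28. Annexins thus differed in direction, Ann9 being absent from eggs and Ann6 abundant there.

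Cell wall genes rose far more often than they fell. Of 45 tested, 20 were called higher and 2 lower (median 1.26), 21 and 2 without egg replicate 1, and leaving out egg replicate 2 left 1 lower, while leaving out egg replicate 3 or zygote replicate 1 or 3 left 0. CesA-2 (GRMZM2G027723), a catalytic subunit of cellulose synthase, had 162, 157 and 192 CPM in zygotes, against 19.9, 16.6 and 32.4 CPM in egg cells, a log2 fold change of 2.89 ± 0.34 (adjusted p = 6.34e-05). The beta-expansin expB2 (GRMZM2G021621), of the family that loosens grass cell walls, had 82.9, 72.3 and 57.5 CPM in zygotes, against 3.76, 1.18 and 1.66 CPM in egg cells, a log2 fold change of 5.01 ± 0.46, or 5.63 without egg replicate 1. Zygotes were above all eggs for both. CesA-6 (GRMZM2G113137), another cellulose synthase subunit, averaged 111 ± 17.7 CPM in zygotes and 177 ± 26.7 CPM in egg cells, and its call as lower was lost without egg replicate 2 or 3 or zygote replicate 1 or 3. Among the abundant genes that rose, 41kDa (GRMZM2G073725), whose synonym RGP stands for the reversibly glycosylated polypeptides of wall polysaccharide synthesis, had 675, 564 and 872 CPM in zygotes, against 158, 137 and 336 CPM in egg cells. Its log2 fold change of 1.74 ± 0.51 had an adjusted p of 0.015, and of 0.0519 without zygote replicate 3.

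Transport genes rose more often than they fell. Of 45 aquaporin and ion transport genes, 14 rose and 5 fell, and 23 rose and 5 fell of 49 without egg replicate 1. The number that fell was 2 or 3 without egg replicate 2 or 3 or zygote replicate 2 or 3. The aquaporin PIP1-1 (GRMZM2G174807) had 18.1, 26.1 and 16.8 CPM in zygotes, against 0, 0 and 0.207 CPM in egg cells from 3 egg reads, a ratio of 271 with an exact 95% counting interval of 92.3 to 1314. HAK12 (GRMZM2G009353), of a potassium transporter family, averaged 38.7 ± 8.74 CPM in zygotes and 78.8 ± 25.9 CPM in egg cells, a log2 change of −1.03 ± 0.26. Of 31 sugar transport and starch genes, 8 rose and 7 fell, and 13 and 6 of 33 without egg replicate 1, while 4 fell without egg replicate 2, zygote replicate 1 or zygote replicate 3. With library size scaling, 10 rose and 3 fell. The invertase IVR1 (GRMZM2G394450) had 13.6, 13.9 and 28.7 CPM in zygotes, against 0.0818, 0 and 0 CPM in egg cells, a single egg read, a ratio of 679 with an exact 95% counting interval of 122 to 26859. AGP2 (GRMZM2G027955), named for ADP-glucose pyrophosphorylase of starch synthesis, had 107, 155 and 72.6 CPM in zygotes, against 504, 1172 and 920.5 CPM in egg cells, a log2 change of −2.96 ± 0.36 (adjusted p = 9.4e-05). The starch debranching enzyme iso2 (GRMZM2G090905) also fell, with 4.24 ± 2.96 CPM in zygotes and 30.3 ± 5.32 CPM in egg cells, a log2 change of −2.83 ± 0.60, or −3.56 without zygote replicate 2. The invertases named here thus rose while these starch genes fell.

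Redox genes changed both ways. Of 45 tested, 17 rose and 11 fell, and 19 and 13 without egg replicate 1. rbohC (GRMZM2G043435), an NADPH oxidase that makes superoxide outside the cell, had 123, 79.6 and 121 CPM in zygotes, against 12.8, 23.6 and 17.2 CPM in egg cells, a log2 fold change of 2.59 ± 0.38 (adjusted p = 0.000324). The abundant scavenging enzymes named here fell. The catalase cat1 (GRMZM2G088212) had 454, 558 and 487 CPM in zygotes, against 958, 2847 and 1882 CPM in egg cells, a log2 change of −1.92 ± 0.32, or −1.29 without egg replicate 2. The superoxide dismutase sod4 (GRMZM2G169890) averaged 200 ± 17.6 CPM in zygotes and 717 ± 264 CPM in egg cells, a log2 change of −1.84 ± 0.31.

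Among specialised metabolism, 10 of 19 flavonoid and phenylpropanoid genes rose and 1 fell, 13 of 22 and 1 without egg replicate 1. bx8 (GRMZM2G085054), a glucosyltransferase of the benzoxazinoid defence compounds, had 72, 27.3 and 128 CPM in zygotes, against 4.33, 2.27 and 1.66 CPM in egg cells, a log2 fold change of 4.78 ± 0.81, or 4.17 without zygote replicate 3. Of 21 lipid and wax genes 8 rose and 3 fell (9 and 3 of 24 without egg replicate 1), and 5 rose without zygote replicate 3. The oleate desaturase FAD2 (GRMZM2G056252) averaged 82.8 ± 14 CPM in zygotes and 14.1 ± 5.89 CPM in egg cells, a log2 change of 2.56 ± 0.34, and the acetyl-CoA carboxylase Acc-1 (GRMZM5G858094) averaged 93.6 ± 21.4 CPM in zygotes and 212 ± 57.1 CPM in egg cells, a log2 change of −1.18 ± 0.29. Of 13 pathogenesis and wound genes, 5 rose and 2 fell, 8 and 2 of 14 without egg replicate 1, with 3 higher when egg replicate 3 was left out. The cysteine protease inhibitor cpi2 (GRMZM2G012160) averaged 205 ± 19.5 CPM in zygotes and 499.8 ± 175 CPM in egg cells, a log2 change of −1.29 ± 0.25. Of 9 terpene synthases 2 rose and 1 fell, and 4 rose and 2 fell of 10 without egg replicate 1.

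Ribosomal protein genes fell, and none rose with all eggs. Of 35 tested, 20 were called lower (median −0.86), and 20 lower and 3 higher without egg replicate 1. The count rests on egg replicate 2, without which 9 were lower, and with library size scaling 8 were lower. arpp2b (GRMZM2G114954), an acidic stalk protein of the large subunit, had 119, 138 and 107 CPM in zygotes, against 279, 777 and 332 CPM in egg cells, a log2 fold change of −1.93 ± 0.34 (adjusted p = 0.000933), or −1.12 without egg replicate 2. The stalk protein gene rpp2a-4 (GRMZM2G075630) had 68.9, 53.4 and 54.7 CPM in zygotes, against 112, 419.5 and 284 CPM in egg cells, a log2 change of −2.21 ± 0.40, or −1.53 without egg replicate 2. All zygotes were below all eggs for both, and egg replicate 2 was the highest egg. Of 12 translation factors and tRNA synthetases, 7 fell and 0 rose (median −1.31), 8 and 0 without egg replicate 1. EF1-A (GRMZM2G153541), the elongation factor that brings aminoacyl-tRNA to the ribosome, had 497, 585 and 426 CPM in zygotes, against 834, 4356 and 2972 CPM in egg cells, a log2 change of −2.44 ± 0.44 (adjusted p = 0.00103), or −1.70 without egg replicate 2.

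Glycolysis, fermentation and respiration genes fell more often than they rose. Of 38 tested, 6 rose and 19 fell (median −0.66), 9 and 20 without egg replicate 1, with 10 lower without egg replicate 2 and 9 with library size scaling. GAPC2 (GRMZM2G180625), a cytosolic glyceraldehyde-3-phosphate dehydrogenase, had 1452, 1780 and 1505 CPM in zygotes, against 2671, 7067 and 4417 CPM in egg cells, a log2 fold change of −1.58 ± 0.30 (adjusted p = 0.00137), or −0.95 without egg replicate 2. Pgk-2 (GRMZM2G382914), a phosphoglycerate kinase, had 1339, 1696 and 1393 CPM in zygotes, against 2726, 5351 and 4849 CPM in egg cells, a log2 change of −1.55 ± 0.26 (adjusted p = 0.000638). The enolase eno2 (GRMZM2G048371) had 527, 652 and 515 CPM in zygotes, against 1369, 3326 and 2135 CPM in egg cells, a log2 change of −2.01 ± 0.30, or −1.42 without egg replicate 2. These 3 steps follow each other closely in glycolysis, and every zygote library was below every egg library at each. hex2 (GRMZM2G432801), a hexokinase at the entry of the pathway, rose instead, with 32.1, 48.2 and 58.8 CPM in zygotes, against 2.86, 1.01 and 3.93 CPM in egg cells, a log2 change of 4.15 ± 0.62 (adjusted p = 0.000351). PDK1 (GRMZM2G097821), named for the kinase that switches off pyruvate dehydrogenase, averaged 72.7 ± 5.26 CPM in zygotes and 34.5 ± 10.1 CPM in egg cells, a log2 change of 1.07 ± 0.25.

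Genes of protein folding and turnover fell more often than they rose with all eggs. Of 37 heat shock proteins and chaperones, 2 rose and 14 fell with all eggs, and 9 rose and 14 fell without egg replicate 1. The number that rose was 1 without egg replicate 2, zygote replicate 1 or zygote replicate 3. CPN60II (GRMZM2G416120), the other chaperonin of mitochondria named here, averaged 113 ± 31.5 CPM in zygotes and 464 ± 51.8 CPM in egg cells, a log2 change of −2.04 ± 0.24 (adjusted p = 7e-05). The protein disulfide isomerase pdi5 (GRMZM2G014076) rose, with 29.6 ± 4.46 CPM in zygotes and 10.3 ± 2.17 CPM in egg cells, a log2 change of 1.52 ± 0.26. Of 11 SUMO and ubiquitin-like genes, 6 fell and 0 rose (6 and 1 without egg replicate 1). URM1 (GRMZM2G179689), a ubiquitin-related modifier of tRNA, had 16.6, 15.9 and 14 CPM in zygotes, against 25.4, 259 and 227 CPM in egg cells, a log2 change of −3.46 ± 0.58, or −2.79 without egg replicate 2. Egg replicate 1 was close to the zygotes for URM1 and the other eggs far above. Of 21 autophagy and cell death genes, 1 rose and 8 fell, 4 and 9 without egg replicate 1, with 5 lower without egg replicate 2. Atg8c (GRMZM2G076826), which is anchored in autophagosome membranes, averaged 192 ± 20 CPM in zygotes and 536 ± 231 CPM in egg cells, a log2 change of −1.49 ± 0.27, or −0.88 without egg replicate 2. Of 6 ubiquitin and proteasome genes, 2 rose and 2 fell, 3 and 2 without egg replicate 1.

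With all eggs, RNA processing genes fell where they were called, and genes of organelle expression were called no more often than all genes. Of 28 RNA processing and export genes, 8 fell and 0 rose (11 and 1 without egg replicate 1), and scaling by library size gave 3 and 2, while 3 fell without egg replicate 2 and 5 without zygote replicate 1. The splicing factor srp31 (GRMZM2G170365) had 75.3, 67.9 and 65.2 CPM in zygotes, against 121, 453 and 215 CPM in egg cells, a log2 change of −1.92 ± 0.36, or −1.06 without egg replicate 2. Of 35 genes of organelle gene expression, 3 rose and 6 fell (4 and 7 of 36 without egg replicate 1), against 5 and 4 with library size scaling, and 3 fell without zygote replicate 3. These are 8.57% higher and 17.1% lower, beside 19.4% and 18.1% over all genes. CRS2 (GRMZM2G132021), a splicing factor of chloroplast introns, had 20.1, 24.8 and 21 CPM in zygotes, against 69, 59.5 and 75 CPM in egg cells, a log2 change of −1.63 ± 0.27 that held without any 1 library. Of 16 genes of Mediator and the general transcription machinery, 0 rose and 2 fell, and 0 and 5 without egg replicate 1. Neither Mediator gene calls nor general factor calls held in every fit that left out 1 library. Of 21 plastid and photosynthesis genes 3 rose and 5 fell, and 5 and 4 without egg replicate 1. The malic enzyme me2 (GRMZM2G122479) averaged 319 ± 20.4 CPM in zygotes and 77.6 ± 25.3 CPM in egg cells, a log2 change of 2.04 ± 0.37 (adjusted p = 0.0011), whereas pep (GRMZM2G473001), named for phosphoenolpyruvate carboxylase, averaged 126 ± 66 CPM in zygotes and 750.4 ± 471 CPM in egg cells, a log2 change of −2.58 ± 0.49, or −1.88 without egg replicate 2.

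The most counted genes that changed show how the composition of the library shifted. Counts are not corrected for transcript length, so levels are compared within a gene and not between genes. Among named genes called higher, those with the highest zygote level were 41kDa, SAG, Pti1b, In2-2 and opr1. SAG (GRMZM2G041175) had 372, 419.6 and 506 CPM in zygotes, against 173, 23.6 and 119 CPM in egg cells, a log2 fold change of 2.04 ± 0.47. Pti1b (GRMZM2G061447), of a serine/threonine kinase family, had 389, 424 and 379 CPM in zygotes, against 77.1, 233 and 226 CPM in egg cells, a log2 fold change of 1.15 ± 0.35. Zygotes were above all eggs for SAG and Pti1b. In2-2 (GRMZM2G020631), a safener-induced gene, had 274, 175 and 699 CPM in zygotes, against 149, 4.96 and 22.8 CPM in egg cells, a log2 fold change of 2.70 ± 1.01, or 4.78 without egg replicate 1 and 1.93 without zygote replicate 3. Its call was lost without egg replicate 2 or 3 or zygote replicate 1 or 3. Among genes called lower, those with the highest egg level were GAPC2, Pgk-2, MUB3, tua4 and CRH. CRH (GRMZM2G358059), the calcium-binding chaperone calreticulin, had 860.4, 974 and 873 CPM in zygotes, against 1899, 4048 and 2572 CPM in egg cells, a log2 change of −1.65 ± 0.39 (adjusted p = 0.00493). MUB3 (GRMZM2G409726), a ubiquitin gene by its synonyms, had 1262, 1405 and 1834 CPM in zygotes, against 1376, 4950 and 3568 CPM in egg cells, and its log2 fold change of −1.14 ± 0.35 was no longer called without egg replicate 2 (−0.50), egg replicate 3 or zygote replicate 1 or 2.

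**Figure D5:**
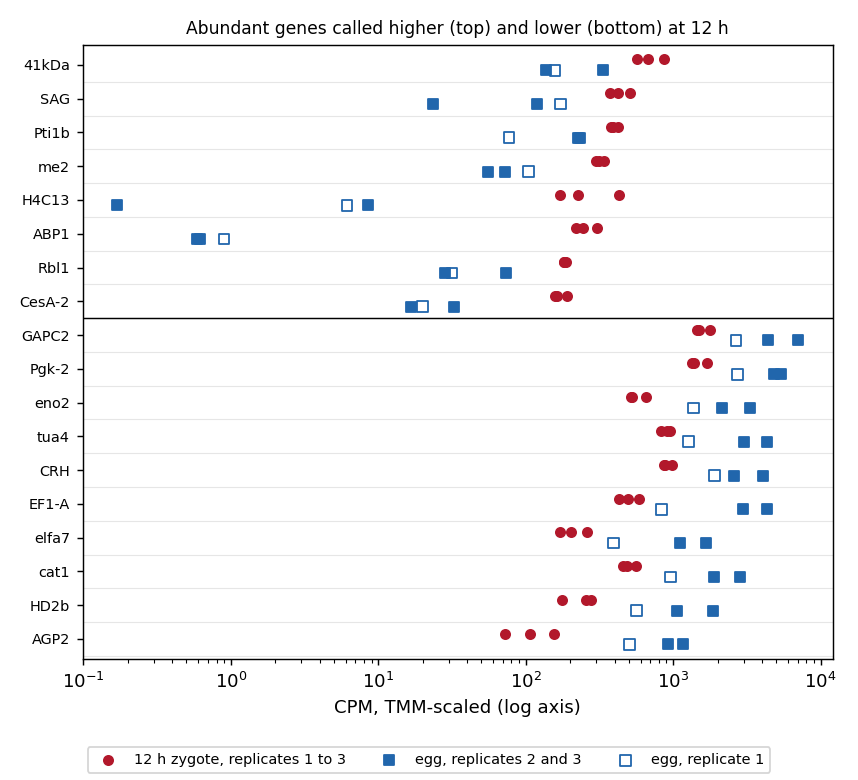
CPM per library, on a log axis, of a selection of named genes called higher or lower, with zygote libraries shown before egg libraries. All genes were read in every zygote library, and egg replicate 1 is the lowest egg for GAPC2 at 2671 CPM.

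Marker genes of the embryo sac and of other tissues were then compared. The embryo sac list was not chosen to tell egg cells from other cells of the embryo sac, so the cell type itself was not tested. The 6 egg cell and embryo sac markers sum to 2673, 2685 and 2991 CPM in zygotes, against 5946, 804 and 2968 CPM in eggs. All 6 were read in both groups, and egg replicates 1 and 2 lay on either side of the zygotes. es1 (GRMZM2G012012), of a family of defensin-like embryo sac peptides, had 829, 720.2 and 894 CPM in zygotes, against 1723, 298 and 754 CPM in egg cells, and EBE-2 (GRMZM2G167733), known from the embryo sac and basal endosperm, had 21.6, 23 and 34 CPM in zygotes, against 279, 5.05 and 4.9 CPM in egg cells. With all eggs, 0 of the 6 were called by edgeR or DESeq2, and 1 was lower at an unadjusted p under 0.05. The high value of EBE-2 in egg replicate 1 set the fitted direction, a log2 fold change of −1.88 ± 1.28 with it and 2.39 without it. es2 (GRMZM2G128301), of the same peptide family as es1, had 641, 657 and 759 CPM in zygotes, against 1249, 162 and 367 CPM in egg cells. It was the 1 marker of the 6 called without egg replicate 1, with a log2 fold change of 1.37 (adjusted p = 0.011), against 0.21 ± 0.53 with all eggs. The 13 sperm and pollen markers sum to 31.7 to 44.5 CPM in zygotes and 32.1 to 64.2 CPM in eggs, against 1023 to 1256 CPM in sperm by library size. Of 12 tested, 0 were called by edgeR with or without egg replicate 1, 0 by DESeq2 and 0 at an unadjusted p under 0.05. In 7 of the 12, every zygote library was below every egg library, as it was in 17.2% of all tested genes. The polygalacturonase gene PG14 (GRMZM2G418644), one of the 7, had 1.34, 0.273 and 0.65 CPM in zygotes, against 5.32, 4.38 and 3.04 CPM in egg cells. hap2 (GRMZM2G412911), the gamete fusion protein of sperm, had 5.77, 7.33 and 7.15 CPM in zygotes, against 10.1, 3.62 and 4.55 CPM in egg cells, and its groups overlapped.

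Most endosperm markers had no read, while a few were at moderate levels in eggs. The 42 endosperm markers sum to 72.7 to 88.7 CPM in zygotes, with a read in 10 of them, and to 142 to 321 CPM in eggs, with a read in 6. betl4 (GRMZM2G073290), a marker of the basal transfer layer, had 38.8, 30.1 and 31.4 CPM in zygotes, against 157, 150.2 and 72.6 CPM in egg cells, a log2 change of −1.92 ± 0.48 (adjusted p = 0.00677), and FL1 (GRMZM2G094532), named for the endosperm gene Floury, averaged 13.4 ± 2.49 CPM in zygotes and 46 ± 15.4 CPM in egg cells, a log2 change of −1.78 ± 0.39. These were the 2 endosperm markers called of 5 tested. Of 11 tested without egg replicate 1 they were called lower again, and 2 others were called higher. One is MRP1 (GRMZM2G113203), a regulator of transfer cell genes, which had 4.87, 8.84 and 3.69 CPM in zygotes, against 5.23, 0 and 0 CPM in egg cells. The other is BET1 (GRMZM2G082785), a basal transfer layer gene, which had 3.19, 4.37 and 1.52 CPM in zygotes, against 7.61, 0.252 and 0 CPM in egg cells. In both, egg replicate 1 held nearly all the egg reads. gz27 (GRMZM2G138727), named for the gamma zein storage protein, had 25.1, 25.7 and 22.7 CPM in zygotes, against 88.4, 16.5 and 26.9 CPM in egg cells and was not called. The 22 photosynthetic and vegetative markers sum to 34.4 to 57.3 CPM in zygotes and 17.0 to 99.2 CPM in eggs. ME1 (GRMZM2G085019), an NADP-malic enzyme, was the 1 member called with all eggs. It had 13.4, 10.5 and 34.1 CPM in zygotes, against 0.573, 4.38 and 2.48 CPM in egg cells, and its call was lost without zygote replicate 3. Egg replicate 1 had the highest sum of embryo sac and of endosperm markers among the eggs and the lowest of photosynthetic markers, and the part of these differences in the results was not tested.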

How the data were processed

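RNA-seq was measured in 18 libraries, of which the 3 zygote libraries at 12 h and the 3 egg libraries were compared. The authors deposited integer counts per gene ID without normalisation. The submitters' processing notes name the build B73 RefGen_v3 and the tools STAR 2.5.2a, cutadapt 1.13, Trimmomatic 0.32, FastQC, DESeq2 and featureCounts. No source used here gives the strand setting or how multiply mapped reads were handled, which leaves genes with near-identical copies or antisense partners uncertain.

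Of 39475 gene IDs, each was looked up in the RefSeq annotation of Zm-B73-REFERENCE-NAM-5.0: 18387 matched 1 gene, 521 matched more than 1 and stayed unnamed, and 2551 had an informative symbol. No genome of the build of the counts was used, so neither coordinates nor sequences are given, and promoter motifs were not searched.

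The test was edgeR's (version 4.0.16, R 4.3.3), with TMM factors, filterByExpr and robust quasi-likelihood dispersions, and a call needed an adjusted p (Benjamini-Hochberg) under 0.05. It was fitted to the 15 libraries other than sperm, and to 14 without egg replicate 1. The code was tested on simulated data. Depth ranged from 11128444 to 18373932 counts over the 6 libraries. Reads carry no molecular identifiers, so the exact 95% intervals of count ratios and the floors of 3 counts cover counting error only. In a chi-square check, every pair of libraries within a group differed by more than sampling noise.

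The comparison, its 54 gene lists and the rule for named genes were chosen with earlier results of these data known. The rule names the 12 genes with the largest change in each direction among called genes with an informative symbol, no overlap between the groups and at least 10 CPM in the higher group, called with and without egg replicate 1. It adds up to a pair of called members per direction in each list of at least 5 tested members (those of smallest adjusted p), the 5 called genes of highest level per direction, and marker genes. The text gives 121 of the 213 genes so named. Members matched by an ambiguous synonym were taken out of lists after the names were seen. The alternatives were another scaling, no filter, DESeq2 1.42.0, other sets of libraries, a replicate block and each library left out.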

Additional observations from a re-analysis of the deposited data

How the results depend on the processing

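The number of genes called was 8912 with all eggs and lay between 7949 and 10274 with RLE or upper-quartile factors, library size alone, no filter on low counts, DESeq2, all 18 libraries or a replicate block, but was 3785 (2546 higher, 1239 lower) when only the 6 libraries were fitted, and list members called numbered 293 there against 573 (the cause was not tested). Library size alone gave 2174 genes lower, against 4299. Among alternatives added after the data were seen, the 5 libraries without egg replicate 1 gave 9468 calls and library size without egg replicate 1 gave 9664 higher, against 4613. With 1 library left out, 6465 to 11999 genes were called, 3583 to 6654 higher and 2673 to 5345 lower, lowest for the lower genes without egg replicate 2. The replicate block gave 7949 calls, but the labels give no pairing of same-numbered libraries. Deviations of same-numbered libraries correlated at −0.016, 0.074 and −0.047, with up to 0.099 between other numbers. Not every library correlated best with its own number, and with 3 libraries a group these values cannot exclude a pairing. Of 1932 values of the 121 named genes under alternatives, 1833 kept direction and call, 72 lost the call and 9 gained one, all of BET1, MRP1 or es2 without egg replicate 1. The 18 values with the opposite sign belong to markers that were not called with all eggs: hap2 at −0.01 without egg replicate 3, EBE-2 at 2.39, 2.49 (5 libraries) and 3.10 (library size) without egg replicate 1 (−2.42 to 2.39 with 1 library left out), es1 at 0.24 (library size), 0.01 (6 libraries), 0.03 (replicate block), and 0.63 (−0.40 to 0.63 with 1 library left out), 0.72 (5 libraries) and 1.32 (library size) without egg replicate 1, gz27 at 0.17 (−1.08 to 0.17 with 1 library left out), 0.26 (5 libraries) and 0.87 (library size) without egg replicate 1, and, with 1 library left out, BET1 (−0.35 to 4.58) and es2 (−0.04 to 1.37). Why these values moved was not tested. The difference in genes detected was 3217 at 2 CPM, 4002 at 0.5 CPM and 3679 after thinning, against 3605, and that in the share of counts was −1.12 percentage points for the 10 and −11.5 for the 1000 most abundant genes, against −4.63 for 100. Depth limits genes near the floors of 0.0559 CPM in zygotes and 0.0777 CPM in eggs, where 3 libraries a group also set the smallest exact p to 0.1.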
